A study of Mus musculus with 8 samples.

Results

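Collagen genes were followed on the 8 arrays of a study of the repressor REST in the embryonic brain. The members were all genes whose annotated symbol is Col, a number, the letter a and a number, which gave 42 genes on 82 probe sets, of 18193 genes on 45037 probe sets tested. Of the 42 genes, 11 encode fibrillar chains, 8 encode chains of basement membranes and 23 encode other chains, and each gene was counted once, by its brightest probe set on average. The rule uses the symbol and no measured change.

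Brain of C57/BL6 embryos was taken at E12.5. One group of 4 arrays held *Nestin Cre+, Rest GTi/GTi* brain, called *Cre+, Rest GTi/GTi* here, and the other 4 held *Rest GTi/GTi* littermate brain without Cre, the controls. Both groups carried the inverted gene trap allele (GTi) on both *Rest* copies, from which *Rest* is spliced normally, and Cre turned the trap back so that the transcript ended before the coding exons. *Nestin Cre* is used to reach neural progenitors and their progeny, while the RNA came from brain with all its cell types. Cre and the loss of REST cannot be told apart. The labels call the arrays biological replicates and do not say whether an array held RNA of 1 embryo, so the tests measure the spread between these arrays.

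Collagens are matrix proteins whose chains wind around each other into helical trimers. Fibrillar collagens assemble outside the cell into the cross-striated fibrils of connective tissue, and in the embryonic head they are made chiefly by mesenchyme, which also forms the meninges and the skull. Type IV collagen forms sheets in basement membranes, which in the brain lie around blood vessels and under the pial surface. Other classes coat fibrils, form beaded filaments and hexagonal networks, or cross the plasma membrane. Neural progenitors and neurons themselves make little fibrillar collagen. In brain tissue as a whole, a change in the number of cells of one type and a change in the RNA of each such cell cannot be told apart.

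In 20 of 42 collagen genes both of the highest intensities lay on *Cre+, Rest GTi/GTi* replicates 1 and 2. That order was found in 7.9% of all genes. On replicates 3 and 4 of the same genotype, 0 collagens lay more than 1 log2 unit above the control mean. Of all genes, 0.407% and 0.357% did. All folds given here are ratios of the intensity plus 16 to the controls' mean on the log2 scale, which are smaller than ratios of the intensities themselves, most of all in dim genes. On that scale, on replicates 1 and 2 the type I and III genes were 7.78 to 29.5 fold above the control mean, and *Col6a1*, *Col6a2* and *Col6a3* of type VI were 3.72 to 7.24 fold above it. Type IV genes were at most 2.9 fold above it. With 4 arrays a group, limma called 0 of 42 collagen genes higher or lower in *Cre+, Rest GTi/GTi* at an adjusted p of 0.05. Among all genes it called 39 higher (0.214%) and 2 lower (0.011%). At an unadjusted p under 0.05, 1 collagen gene was higher (*Col27a1*), beside 3.94% of all genes, and 1 was lower (*Col6a4*), beside 3.03% of all genes. The t-test of the methods called 0 collagen genes after adjustment with equal or unequal variances, beside 14 and 0 of all genes. At an unadjusted p under 0.05, equal variances gave 0 collagens higher and 1 lower, beside 3.49% and 3.4% of all genes. Unequal variances gave 0 and 0, beside 2.89% and 2.79% of all genes.

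The arrays also differed over all probe sets, those of the collagens included. In a principal component analysis of all probe sets the leading component held 25.9% of the variance and set *Cre+, Rest GTi/GTi* replicates 1 and 2 (-34.1 and -48.4) apart from the other 6 arrays (3.10 to 27.1). *Rest* itself read 163, 217, 84.4 and 134 in *Cre+, Rest GTi/GTi* and 170.1, 272, 211 and 198 in controls, in replicate order, and these overlapped (log2 fold change -0.51 ± 0.25, two-sided exact permutation p = 0.143). *Xist*, an RNA made from the inactive X of females, was at 7875 and 8247 on control replicates 2 and 3, and at most 57.8 on the other 6 arrays, so the sexes were not balanced. All values below are normalized intensities after quantile scaling, given in the order of replicates 1 to 4. Log2 fold changes are *Cre+, Rest GTi/GTi* minus control on the scale of log2(intensity + 16), with standard errors, and understate the change of dim genes. With 4 arrays against 4, the smallest p that the exact permutation test can give is 0.0286.

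*Col1a1* and *Col1a2* encode the chains of type I collagen, the main fibril protein of skin, bone and meninges. *Col1a2* read 2111, 3754, 100.2 and 71.8 in *Cre+, Rest GTi/GTi* and 60.3, 148, 72.6 and 224 in controls. Replicates 1 and 2 of *Cre+, Rest GTi/GTi* were far above the other 6 arrays, while replicates 3 and 4 lay inside the control range. Against the control mean, replicates 1 and 2 were 16.7 and 29.5 fold higher as intensity plus 16. The log2 fold change over all arrays was 2.07 ± 1.23 (limma adjusted p = 0.806, exact permutation p = 0.314).

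*Col1a1* read 182, 598, 3.16 and 1.68 in *Cre+, Rest GTi/GTi* and 1.84, 12.0, 0.912 and 33.5 in controls. The chain was near the bottom of the scale on 4 arrays, 2 of each genotype, and high on the same 2 arrays as *Col1a2*. Its log2 fold change was 1.66 ± 1.11 (limma adjusted p = 0.836). Most control values of the gene were under the added 16, so the size of its fold depends on that constant. A second probe set of *Col1a1* read 225 and 555 on replicates 1 and 2 and at most 6.56 on the other 6 arrays.

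*Col3a1* encodes type III collagen, which forms fibrils together with type I in soft tissue and vessel walls. It read 4864, 4571, 232 and 135 in *Cre+, Rest GTi/GTi* and 117, 412, 115 and 555 in controls. Replicates 1 and 2 were 19.1 and 18 fold above the control mean as intensity plus 16. Which of them was higher depended on the probe set, since a second one of *Col3a1* read 616 on replicate 1 and 672 on replicate 2. Among the controls, replicates 2 and 4 were above replicates 1 and 3, an order that *Col1a1* and *Col1a2* shared. The log2 fold change was 1.91 ± 1.22 (limma adjusted p = 0.823, exact permutation p = 0.286). In the range of their log2 values over the 8 arrays, *Col1a2*, *Col3a1* and *Col1a1* ranked 5, 8 and 9 among 18193 genes.

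**Figure D1:**
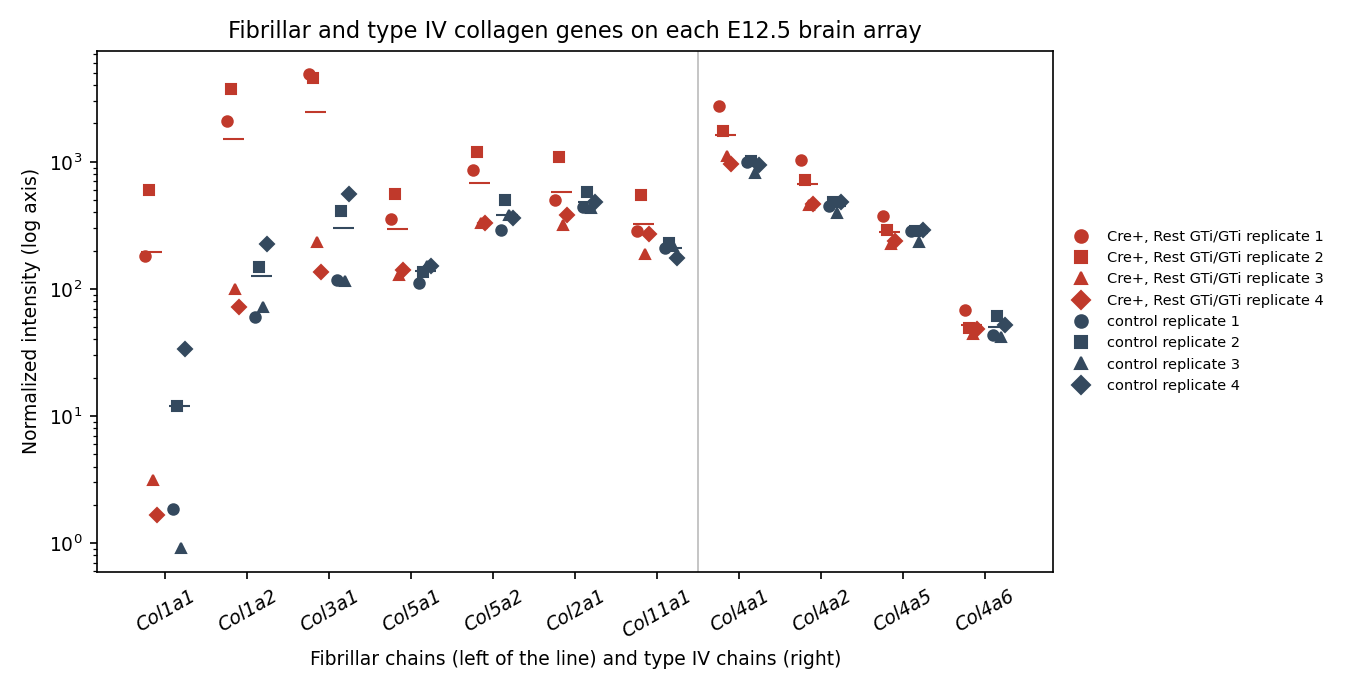
Normalized intensity (log axis) of 7 fibrillar and 4 type IV collagen genes on each of the 8 E12.5 brain arrays; red marks are Cre+, Rest GTi/GTi, blue marks are controls, the shape gives the replicate number, and short lines are the means of 4 arrays. The red circle and square (replicates 1 and 2) of Col1a2 are at 2111 and 3754, and the other 6 arrays lie at 224 or below. Type IV genes spread less than the type I and III genes, and the red circle is above the red square in each type IV gene.

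To show the DNA in front of the genes that were high on the same arrays, 150 bases upstream of the RefSeq start are printed for 4 collagens, of types I, III, VI and VIII, whose window in the RefSeq table (GRCm38.p6) ends where the annotated gene begins. They read 5′ to 3′ on the strand of the gene, and capitals mark a match to one of the motifs named after the sequences, each searched on both strands.

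*Col1a2*, chr6:4505468-4505617, plus strand: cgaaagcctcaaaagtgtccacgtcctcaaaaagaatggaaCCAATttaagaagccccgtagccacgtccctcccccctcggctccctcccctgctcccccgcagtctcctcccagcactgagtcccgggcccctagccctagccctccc

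*Col3a1*, chr1:45311388-45311537, plus strand: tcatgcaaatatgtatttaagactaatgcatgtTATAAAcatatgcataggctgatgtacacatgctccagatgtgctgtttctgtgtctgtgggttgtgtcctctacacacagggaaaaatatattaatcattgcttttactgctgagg

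*Col6a1*, chr10:76726045-76726194, minus strand: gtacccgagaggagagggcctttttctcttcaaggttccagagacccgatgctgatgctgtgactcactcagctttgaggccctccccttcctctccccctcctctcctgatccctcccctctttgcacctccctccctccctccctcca

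*Col8a2*, chr4:126286644-126286793, plus strand: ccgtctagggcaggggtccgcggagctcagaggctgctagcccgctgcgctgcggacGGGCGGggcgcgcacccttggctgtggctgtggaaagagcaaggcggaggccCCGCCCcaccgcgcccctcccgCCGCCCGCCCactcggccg

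The match in *Col1a2* is CCAAT, starting at position -109, and that in *Col3a1* is TATAAA at -117, with -1 the base before the start. *Col8a2* held GGGCGG at -93 and, from the other strand, its complement CCGCCC at -41, -19 and -15, of which the last pair overlap. *Col6a1* held none of these motifs in the stretch printed. RefSeq windows of 250 upstream bases were found for 33 of the 42 genes (36 windows), and not for *Col1a1*, *Col2a1*, *Col4a3*, *Col5a2*, *Col9a3*, *Col12a1*, *Col14a1*, *Col22a1* and *Col26a1*. CCAAT was in 36.1% of the collagen windows and 33.8% of all 32851 windows. TATAAA was in 13.9% and 12.4%, and GGGCGG in 58.3% and 32.7%. These are counts of letters, and no binding was measured.

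*Col5a1*, *Col5a2* and *Col5a3* encode type V chains, which are built into the core of type I fibrils and set their width. *Col5a1* read 353, 557, 129 and 142 in *Cre+, Rest GTi/GTi* and 112, 136, 151 and 151 in controls, and its log2 fold change was 0.79 ± 0.42 (limma adjusted p = 0.783). *Col5a2* read 859.6, 1202, 333 and 332 in *Cre+, Rest GTi/GTi* and 288, 497, 379 and 359 in controls, with a log2 fold change of 0.62 ± 0.41 (limma adjusted p = 0.832). On these probe sets both were highest on replicates 1 and 2 and overlapped with controls on replicates 3 and 4. A further probe set of *Col5a1* read 163, 259.7, 123 and 132 in *Cre+, Rest GTi/GTi* and 107 to 115 in controls. There the groups did not overlap (exact permutation p = 0.0286, limma adjusted p = 0.688). The third one read 31.0, 64.6, 5.49 and 3.08 in *Cre+, Rest GTi/GTi* and 7.13 to 17.5 in controls. On it replicates 3 and 4 were below every control (log2 fold change 0.43 ± 0.43, exact permutation p = 0.486). *Col5a3* read 27.1, 43.9, 32.3 and 29.0 in *Cre+, Rest GTi/GTi* and 36.7, 29.2, 24.4 and 31.4 in controls, where only replicate 2 was above every control. *Col5a2* lies 24624 bases from *Col3a1* on chromosome 1 of GRCm38.p6.

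*Col2a1* encodes type II collagen, the fibril protein of cartilage, which early neuroepithelium and notochord also make. It read 498, 1097, 317 and 381 in *Cre+, Rest GTi/GTi* and 439.9, 575, 429.7 and 480.1 in controls. Replicate 2 was above every other array, replicate 1 was inside the control range and replicates 3 and 4 were below it. The log2 fold change was 0.09 ± 0.34 (limma adjusted p = 0.988). *Col11a1*, whose chain joins type II fibrils, read 287, 549, 189 and 268 in *Cre+, Rest GTi/GTi* and 211, 229.6, 219 and 176 in controls. It was highest on replicate 2, and replicates 1 and 4 were also above the controls while replicate 3 was not (log2 fold change 0.50 ± 0.27, exact permutation p = 0.114). A second probe set of *Col11a1* read 138, 396, 123 and 91.2 in *Cre+, Rest GTi/GTi* and 123 to 130 in controls. There replicate 4 was below every control (log2 fold change 0.30 ± 0.36, exact permutation p = 0.686).

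*Col27a1*, a fibrillar gene of growing cartilage, read 120.1, 202, 90.5 and 129 in *Cre+, Rest GTi/GTi* and 82.1, 112, 66.3 and 86.0 in controls. On this probe set replicates 1, 2 and 4 were above every control and replicate 3 was below the highest one. Its log2 fold change of 0.53 ± 0.22 had an unadjusted p of 0.039 and an adjusted p of 0.701 in limma (exact permutation p = 0.0571). *Col27a1* had a second probe set, which read 66.9, 102, 54.8 and 43.3 in *Cre+, Rest GTi/GTi* and 36.4 to 57.2 in controls. There replicates 3 and 4 were inside the control range (log2 fold change 0.33 ± 0.21, exact permutation p = 0.257). *Col11a2*, another chain of type XI, read 58.8, 58.6, 86.1 and 61.7 in *Cre+, Rest GTi/GTi* and 68.0, 58.4, 54.0 and 53.9 in controls, and was the only fibrillar gene highest on replicate 3. *Col24a1* was dim, at 5.19, 16.4, 5.66 and 5.66 in *Cre+, Rest GTi/GTi* and 4.75, 0.487, 4.00 and 4.65 in controls. Its groups did not overlap (exact permutation p = 0.0286, the smallest possible, limma adjusted p = 0.772), but 7 of the 8 values were under 6.

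Over the fibrillar class, 11 of 11 log2 fold changes were above 0, with a median of 0.53, and 6 of 11 genes had their 2 highest values on *Cre+, Rest GTi/GTi* replicates 1 and 2. Counted by probe set, that order was found in 37 of 82 of the collagens and in 5.92% of all probe sets. The class mean, as log2(intensity + 16) minus the mean of the 4 controls, was 1.33 and 1.99 on replicates 1 and 2. It was -0.07 and -0.11 on replicates 3 and 4, inside the controls' own range of -0.23 to 0.27. Leaving out replicates 1 and 2 together moved the class median to -0.01, and leaving out replicate 2 alone moved it to 0.28. In these fits 0 fibrillar genes were called, beside 0 and 21 of all 18193 genes.

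The chains of the most widespread type IV collagen are encoded by *Col4a1* and *Col4a2*, found in the basement membrane of all vessels and of the pia. *Col4a1* read 2739, 1757, 1100.3 and 957 in *Cre+, Rest GTi/GTi* and 994, 1011, 811 and 935 in controls. Replicates 1, 2 and 3 were above every control and replicate 4 was between the controls. The log2 fold change was 0.68 ± 0.30 (limma adjusted p = 0.733, exact permutation p = 0.0857).

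*Col4a2* read 1028, 712, 457 and 462 in *Cre+, Rest GTi/GTi* and 452, 482, 394 and 483 in controls. It was higher on replicate 1 than on replicate 2, as *Col4a1* was, and replicates 3 and 4 were inside the control range (log2 fold change 0.46 ± 0.24, limma adjusted p = 0.782). The annotated bodies of both genes overlap by 85 bases, head to head, on chromosome 8. Against the control mean, as intensity plus 16, *Col4a1* was 2.9 and 1.87 fold higher on replicates 1 and 2, and *Col4a2* was 2.24 and 1.56 fold higher.

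*Col4a5* and *Col4a6*, neighbours 1274 bases apart on the X chromosome, encode chains of other type IV networks. *Col4a5* read 373, 290.4, 225 and 236 in *Cre+, Rest GTi/GTi* and 285, 287, 235 and 292 in controls. On this probe set only replicate 1 stood above the controls (log2 fold change 0.01 ± 0.16). A second one of *Col4a5* read 156, 133, 119 and 110 in *Cre+, Rest GTi/GTi* and 106 to 123 in controls. There replicates 1 and 2 were both above every control (log2 fold change 0.141 ± 0.105). *Col4a6* read 67.7, 48.9, 44.3 and 48.2 in *Cre+, Rest GTi/GTi* and 43.6, 61.0, 42.2 and 52.3 in controls, again with replicate 1 highest. *Col4a3* and *Col4a4*, known for the basement membrane of kidney and lung, were dim. *Col4a3* read 1.93, 1.39, 1.94 and 2.51 in *Cre+, Rest GTi/GTi* and 7.90, 4.86, 1.59 and 2.52 in controls, and *Col4a4* read 9.65, 4.85, 15.1 and 6.30 against 13.9, 3.16, 9.44 and 10.1 in controls. Both overlapped between the groups (log2 fold changes -0.16 ± 0.10 and -0.01 ± 0.17).

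*Col18a1* and *Col15a1* encode collagens of basement membranes that carry glycan chains, and the end of the type XVIII chain is cut off as endostatin. *Col18a1* read 769.8, 604, 355 and 393 in *Cre+, Rest GTi/GTi* and 380.1, 433, 366 and 397 in controls, and *Col15a1* read 61.4, 60.9, 27.5 and 30.7 against 31.5, 39.3, 27.5 and 16.3 in controls. On these probe sets of both genes, replicates 1 and 2 were the highest of the 8 arrays. Replicates 3 and 4 were not above every control. The log2 fold changes were 0.35 ± 0.23 and 0.43 ± 0.24 (limma adjusted p = 0.825 and 0.797). A second probe set of *Col18a1* read 300, 205, 155 and 177 in *Cre+, Rest GTi/GTi* and 126 to 160 in controls. There replicate 4 was also above every control (log2 fold change 0.52 ± 0.18, limma unadjusted p = 0.020, adjusted p = 0.641).

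Basement membrane genes had a median log2 fold change of 0.20, and the 6 type IV genes alone had 0.03. Of the 8 genes, 4 had their highest values on replicates 1 and 2, namely *Col4a1*, *Col4a2*, *Col15a1* and *Col18a1*. The class mean was 0.64 and 0.32 on replicates 1 and 2, -0.02 and -0.04 on replicates 3 and 4, and -0.13 to 0.08 on the controls. Without replicate 1 the median was 0.06, and without replicates 1 and 2 it was -0.02. The fibrillar class mean exceeded that of the basement membrane class by 0.69 on replicate 1 and by 1.67 on replicate 2. On the other 6 arrays the difference ran from -0.30 to 0.30.

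**Figure D2:**
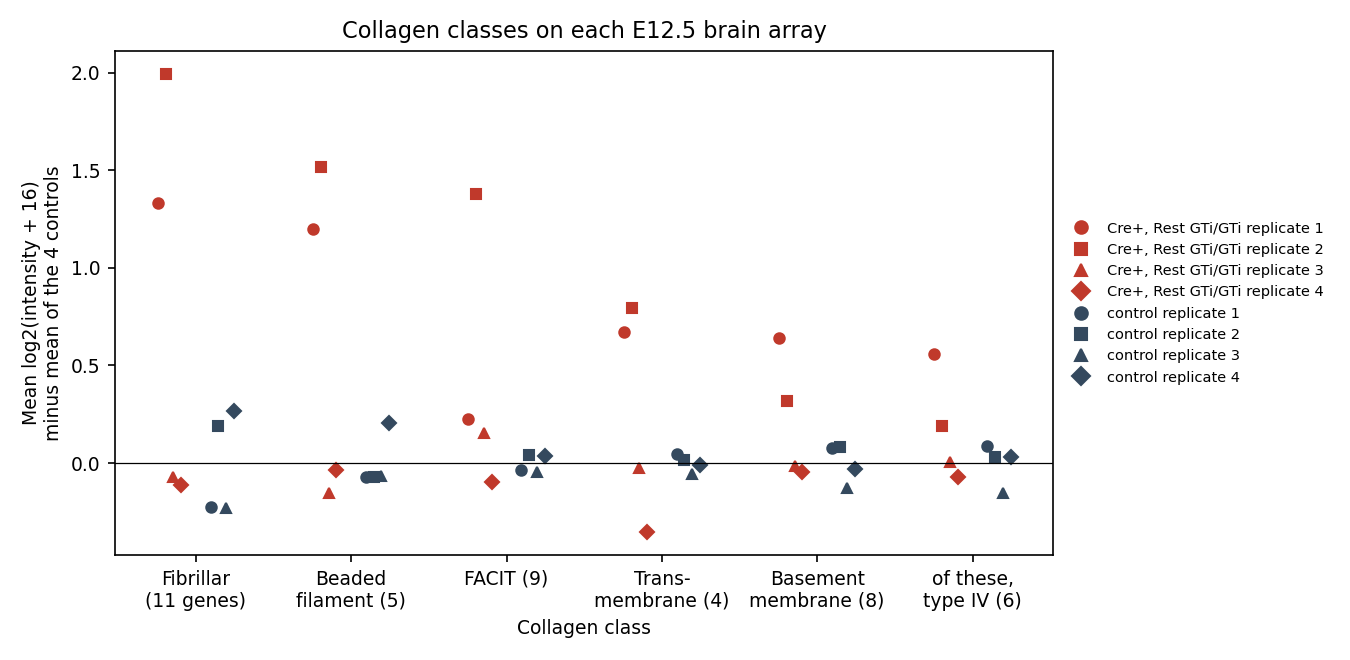
Mean of log2(intensity + 16) over the genes of each collagen class minus the mean of the 4 controls, one mark an array; red is Cre+, Rest GTi/GTi, blue is control and the shape gives the replicate number. Replicate 2 (red square) is above replicate 1 (red circle) in the fibrillar, beaded filament, FACIT and transmembrane classes and below it in the basement membrane class, and replicates 3 and 4 lie at or below 0.16 in every class.

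Among the other collagens, *Col6a1*, *Col6a2* and *Col6a3* encode the chains of type VI collagen, whose beaded filaments lie around cells of connective tissue. *Col6a1* read 173, 272, 23.6 and 23.9 in *Cre+, Rest GTi/GTi* and 23.2, 19.6, 19.2 and 34.9 in controls. *Col6a2* read 373, 492, 54.5 and 75.4 against 50.9, 55.7, 73.8 and 66.4 in controls, and *Col6a3* read 193, 379.6, 26.9 and 27.1 against 39.6, 28.2, 31.3 and 70.1 in controls. All 3 were highest on replicate 2 and next on replicate 1, with replicates 3 and 4 below or near the top of the control range. The log2 fold changes were 1.28 ± 0.64, 1.29 ± 0.62 and 0.98 ± 0.71 (limma adjusted p = 0.770, 0.754 and 0.857). *Col6a4*, one of the type VI genes found later, was dim and lower, at 2.36, 1.59, 2.26 and 11.1 in *Cre+, Rest GTi/GTi* and 10.2, 15.5, 7.99 and 10.3 in controls. Its groups overlapped through replicate 4 (log2 fold change -0.43 ± 0.15, unadjusted p = 0.022, limma adjusted p = 0.651). A second dim probe set of *Col6a4* was not lower, at 1.00 to 12.3 in *Cre+, Rest GTi/GTi* and 4.28 to 8.40 in controls. Its log2 fold change was 0.05 ± 0.16.

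FACIT collagens bind to the surface of fibrils and do not form fibrils alone. *Col9a1*, which encodes a type IX chain found on type II fibrils of cartilage and in the eye, read 55.5, 760, 21.8 and 14.6 in *Cre+, Rest GTi/GTi* and 20.2, 27.1, 27.1 and 22.2 in controls. As intensity plus 16, the value on replicate 2 was 19.4 fold above the control mean and that on replicate 1 was 1.79 fold above it. A second probe set of *Col9a1* read 161 on replicate 2 and 40.1 on replicate 1, against 21.0 to 39.1 in controls. *Col9a2* and *Col9a3*, the partner chains, read 79.3 and 222 on replicate 2, also above all other arrays, while on replicate 1 both lay inside their control ranges of 23.9 to 33.9 and 80.0 to 87.3.

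*Col12a1* encodes type XII collagen of dense connective tissue and periosteum. It read 53.5, 328, 47.6 and 43.3 in *Cre+, Rest GTi/GTi* and 43.2, 39.0, 30.7 and 28.4 in controls. The groups did not overlap, by a margin of 43.3 on replicate 4 against 43.2 on control replicate 1, and only replicate 2 was far from the rest (log2 fold change 0.93 ± 0.52, exact permutation p = 0.0286, the smallest possible, limma adjusted p = 0.795). On a further probe set of the gene the order differed, with replicate 2 at 90.0 and replicate 4 at 67.8. With *Col24a1*, 2 of 42 collagens had the lowest *Cre+, Rest GTi/GTi* value above the highest control, beside 2.48% of all genes, and 0 had the opposite order, beside 2.15%. *Col14a1*, a further FACIT gene, read 27.1, 124, 18.0 and 25.8 in *Cre+, Rest GTi/GTi* and 27.4, 23.0, 22.1 and 29.8 in controls (log2 fold change 0.38 ± 0.40). *Col16a1*, another of the class, read 68.9, 213, 57.2 and 30.01 against 50.1, 46.6, 43.9 and 56.8 in controls (log2 fold change 0.46 ± 0.42). Both were highest on replicate 2, and on replicate 1 *Col16a1* alone was above every control.

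*Col8a2* encodes a chain of the hexagonal networks under corneal endothelium. It read 54.8, 487, 20.5 and 26.6 in *Cre+, Rest GTi/GTi* and 19.1, 17.5, 11.5 and 25.6 in controls, and replicate 2 was 14.8 fold above the control mean as intensity plus 16 (log2 fold change 1.34 ± 0.74, exact permutation p = 0.0571). *Col8a1*, its partner chain, was also highest on replicate 2, at 144, with replicate 1 at 30.5 and the controls at 29.8 to 33.5. *Col23a1*, a transmembrane collagen, went the other way and read 136, 128, 31.6 and 18.9 in *Cre+, Rest GTi/GTi* and 25.1, 21.4, 35.8 and 51.2 in controls, slightly higher on replicate 1. *Col26a1* read 131, 207, 50.7 and 40.5 in *Cre+, Rest GTi/GTi* and 34.1, 52.8, 43.0 and 42.9 in controls, with both high arrays above the rest.

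The remaining 13 other collagens included 5 dim genes, *Col6a4*, *Col6a5*, *Col10a1*, *Col17a1* and *Col20a1*, with means under 16. Transmembrane *Col13a1* was highest on replicates 1 and 2, at 45.1 and 44.6 against at most 14.9 elsewhere. *Col7a1*, *Col19a1*, *Col22a1* and *Col25a1* had log2 fold changes between -0.18 and 0.14. *Col25a1*, a transmembrane collagen of neurons, read 129, 201, 132 and 80.8 in *Cre+, Rest GTi/GTi* and 158, 128, 126 and 151 in controls, and *Col22a1* of tissue junctions read 182, 142, 167 and 124 against 149.5, 148, 106 and 149.9 in controls. Both overlapped between the groups. For the 23 other collagens the median log2 fold change was 0.38, and 10 had their highest values on replicates 1 and 2. Without replicate 2 the median was 0.11, and without both replicates it was -0.01.

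**Figure D3:**
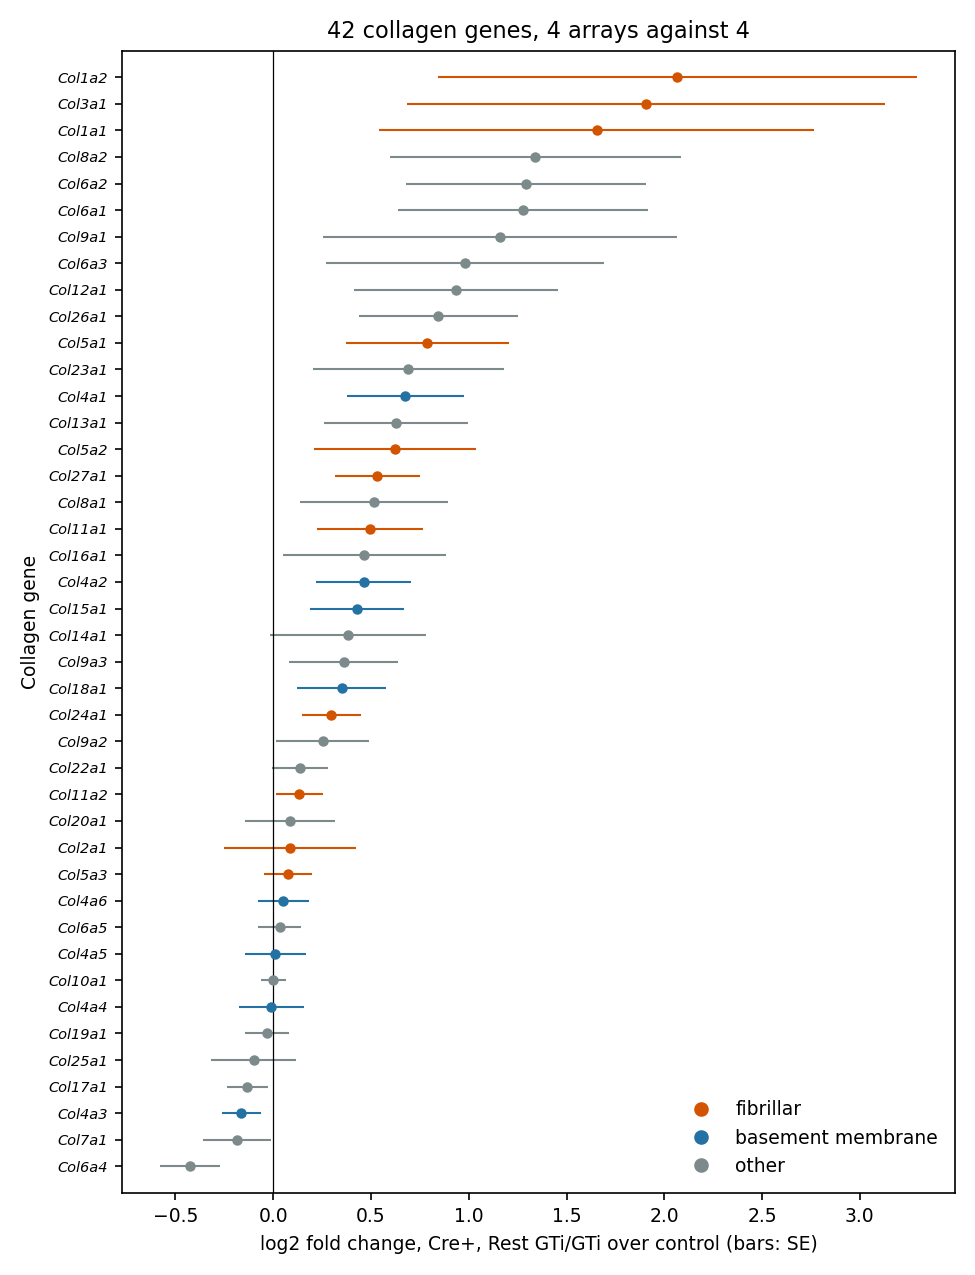
Log2 fold change (Cre+, Rest GTi/GTi over control, on log2(intensity + 16)) of each of the 42 collagen genes with its standard error from limma, coloured by class. Of the 42 points 35 lie right of 0, and the genes with the largest values, Col1a2, Col3a1 and Col1a1, also have the widest bars, 1.11 to 1.23.

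Over all 42 genes, 35 log2 fold changes were above 0, beside 49.5% of all genes, and the median was 0.41, beside -0.0014 over all genes. The median fell to 0.17 without replicate 2 of *Cre+, Rest GTi/GTi*. Without replicates 1 and 2, 20 of 42 were above 0 and the median was -0.01. Without replicate 3 or without replicate 4, 10 collagens were higher at an unadjusted p under 0.05, beside 4.94% and 4.72% of all genes. After adjustment the same fits called 0 collagens, beside 26 and 31 of all genes. With the Y-linked gene *Eif2s3y* as a covariate for sex, 32 of 42 were above 0 with a median of 0.38.

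Spread between arrays was wide in collagens in general. The range of log2(intensity + 16) over the 8 arrays had a median of 1.42 in collagens and 0.49 in all genes, and by class it was 1.74 in fibrillar, 0.89 in basement membrane and 1.76 in other collagens. Of the 181 genes with the widest 1% of ranges, 14 were collagens. On replicate 1, 5 fibrillar, 2 basement membrane and 7 other collagens were more than 1 log2 unit above the control mean, beside 1.33% of all genes. Replicate 2 had 8, 0 and 14 such genes, beside 2.03% of all genes. Replicates 3 and 4 had 0 collagens at that distance, beside 0.407% and 0.357% of all genes.

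Both high arrays differed from each other by class. Replicate 2 was above replicate 1 in 9 of 11 fibrillar, 0 of 8 basement membrane and 14 of 23 other collagens, beside 47.5% of all genes. The median difference, replicate 2 minus replicate 1, was 0.64 on the log2 scale in fibrillar, -0.34 in basement membrane and 0.59 in other collagens. For FACIT collagens the class mean was 0.23 on replicate 1 and 1.38 on replicate 2, and for beaded filament collagens it was 1.20 and 1.51. With 1 array on each side, this difference has no replicate check.

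**Figure D4:**
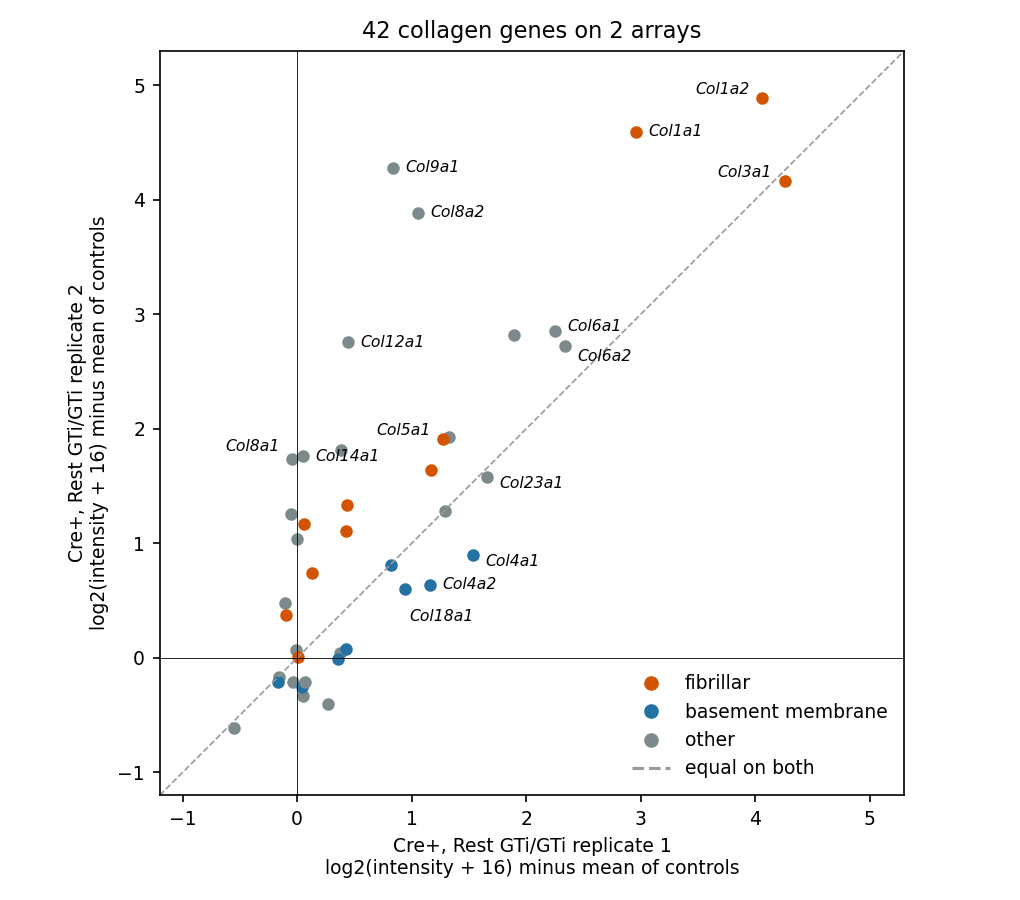
Each of the 42 collagen genes on Cre+, Rest GTi/GTi replicate 1 (x axis) and replicate 2 (y axis), as log2(intensity + 16) minus the mean of the 4 controls; colours give the class and the dashed line marks equal values. All 8 basement membrane genes lie below the line, with Col4a1 farthest along it, while 9 of 11 fibrillar genes lie above it, and Col9a1, Col8a2 and Col12a1 lie farthest above it.

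Further probe sets were compared within the arrays. The 42 genes had 40 further probe sets, from 27 genes, of which 23 had a mean of at least 16. The sign of the log2 fold change was that of the brightest probe set in 22 of these 23. Of 14 such probe sets of genes that were highest on replicates 1 and 2, 13 were also highest there. The filter at 16 uses the mean over all arrays. Some probe sets, such as the second of *Col1a1* (control mean 2.87), pass it only through replicates 1 and 2. Part of this agreement therefore follows from the filter. Probe sets of a gene share the array and its RNA, so they are no further replicates.

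Genes that act on collagen chains were read from a list of 29 enzymes and chaperones, of which 25 were measured. Limma called 0 of 25, and 3 were higher and 0 lower at an unadjusted p under 0.05 (*Plod1*, *Adamts3* and *Pcolce*), beside 0.214% of all genes called higher and 3.94% higher and 3.03% lower at an unadjusted p. The same shares of all genes apply to the counts of the lists that follow. The median log2 fold change was 0.14, and 12 of 25 were highest on *Cre+, Rest GTi/GTi* replicates 1 and 2. *Lox*, which cross-links fibrils, read 228, 399, 46.1 and 33.4 in *Cre+, Rest GTi/GTi* and 43.9, 32.5, 68.3 and 50.3 in controls. *Pcolce*, which speeds the trimming of fibrillar procollagen, read 96.4, 275, 37.0 and 64.1 against 27.3, 38.4, 38.5 and 38.3 in controls. *Loxl1* and *Crtap*, for a cross-linking and a proline-modifying protein, had log2 fold changes of 0.58 ± 0.37 and 0.57 ± 0.31.

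Fibril partners, proteins that bind or space collagen fibrils, had 14 of 15 genes measured, 0 called, 2 higher at an unadjusted p under 0.05 (*Dcn* and *Bgn*) and a median log2 fold change of 0.76. *Lum* (lumican) read 1351, 1880.2, 57.0 and 25.5 in *Cre+, Rest GTi/GTi* and 19.8, 88.1, 31.2 and 138 in controls, the order of arrays seen for *Col1a2*. *Ogn* (osteoglycin) read 68.5, 456, 5.33 and 0.525 against 6.16, 10.3, 11.5 and 21.1 in controls, with replicate 2 far above replicate 1. *Postn* (periostin) read 77.6, 857, 48.7 and 45.6 against 50.8, 78.1, 49.6 and 55.3 in controls, high on replicate 2 and inside the control range on replicate 1. The list mean was 1.23 and 2.03 on replicates 1 and 2, and -0.19 to 0.17 on the other 6 arrays. Laminins, nidogens, perlecan and agrin, the noncollagen part of basement membranes, had 14 of 15 genes measured, 0 called, 1 higher at an unadjusted p under 0.05 (*Lama3*) and a median of 0.33. Their list mean was 0.67 and 0.55 on replicates 1 and 2, so here too replicate 1 was the higher array. *Lamb1*, a laminin chain, read 609, 549.6, 144 and 143 in *Cre+, Rest GTi/GTi* and 141, 180, 143 and 115 in controls.

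Markers of cells that make collagen were read on the same arrays. Mesenchyme and meninges markers (12 of 12 measured, 0 dim) had list means of 1.17, 2.24, -0.06 and -0.15 in *Cre+, Rest GTi/GTi* and of -0.15 to 0.19 in controls, and 8 of 12 were highest on replicates 1 and 2. *Foxc2*, a transcription factor of head mesenchyme, read 65.9, 313, 5.66 and 1.94 in *Cre+, Rest GTi/GTi* and 1.75, 10.8, 5.79 and 10.5 in controls. *Pdgfra*, a receptor of mesenchyme, read 236, 709, 52.2 and 49.7 against 33.9, 101, 54.7 and 81.4 in controls. *Tbx18*, of mural and meningeal cells, was higher on replicate 1 than on replicate 2 and read 305, 118, 26.1 and 2.65 against 9.32, 24.5, 12.9 and 51.3 in controls. *Crabp1*, which neural cells also express, was higher on all 4 *Cre+, Rest GTi/GTi* arrays (1539, 1556, 1666 and 1747) than on any control (1129 to 1441), with an unadjusted p of 0.0029 and an adjusted p of 0.389 in limma.

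Endothelial markers (12 of 12 measured, 0 dim) had list means of 0.68, 0.56, 0.05 and 0.08 in *Cre+, Rest GTi/GTi* and of -0.13 to 0.10 in controls, with 10 of 12 highest on replicates 1 and 2. *Erg*, a transcription factor of endothelium, read 57.7, 107, 39.1 and 34.9 against 43.7, 38.8, 27.6 and 33.2 in controls. Pericyte markers (10 measured, 2 dim) had 0.44, 0.36, 0.26 and 0.23, against -0.05 to 0.09 in controls, so that all 4 *Cre+, Rest GTi/GTi* arrays were above the controls. *Vtn* (vitronectin) read 814, 528, 661 and 595 in *Cre+, Rest GTi/GTi* and 447, 233, 237 and 328 in controls (log2 fold change 1.05 ± 0.22, limma adjusted p = 0.261). Cartilage markers (8 measured, 5 dim) had 0.19, 0.56, 0.07 and -0.002, against -0.09 to 0.10. Of these *Cnmd* (chondromodulin) read 152 on replicate 2 and at most 18.8 on the other arrays, while *Matn1* and *Matn3* stayed under 20 on every array. Muscle markers (8 measured, 3 dim) had 0.02, 0.78, 0.11 and 0.09, against -0.07 to 0.06. *Actc1*, a muscle actin, read 202 on replicate 2 and at most 26.4 on the other arrays. Neural progenitor and neuron markers (10 measured, 0 dim) had -0.09, -0.15, 0.03 and 0.03, against -0.03 to 0.05. *Hes5*, a Notch target of progenitors, read 4199.7, 3051, 3377 and 4955 in *Cre+, Rest GTi/GTi* and 3955, 3812, 4376 and 3640.2 in controls.

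Hindbrain *Hox* genes (10 of 11 measured, 3 dim) varied in another order, with list means of -0.60, 0.62, 1.78 and 1.18 in *Cre+, Rest GTi/GTi* and of -0.42 to 0.81 in controls. *Hoxb3* read 1.84, 179, 746 and 434 in *Cre+, Rest GTi/GTi* and 173, 6.90, 9.32 and 12.8 in controls. Limma called 0 genes of any marker list. In counts at an unadjusted p under 0.05, 1 mesenchyme marker (*Crabp1*), 3 endothelial markers (*Tie1*, *Cldn5* and *Eng*) and 4 pericyte markers (*Rgs5*, *Cspg4*, *Vtn* and *Anpep*) were higher and 0 of any list were lower, beside 3.94% and 3.03% of all genes. The mesenchyme and endothelial markers moved with the collagens from array to array, and their part in the collagen values was not tested.

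**Figure D5:**
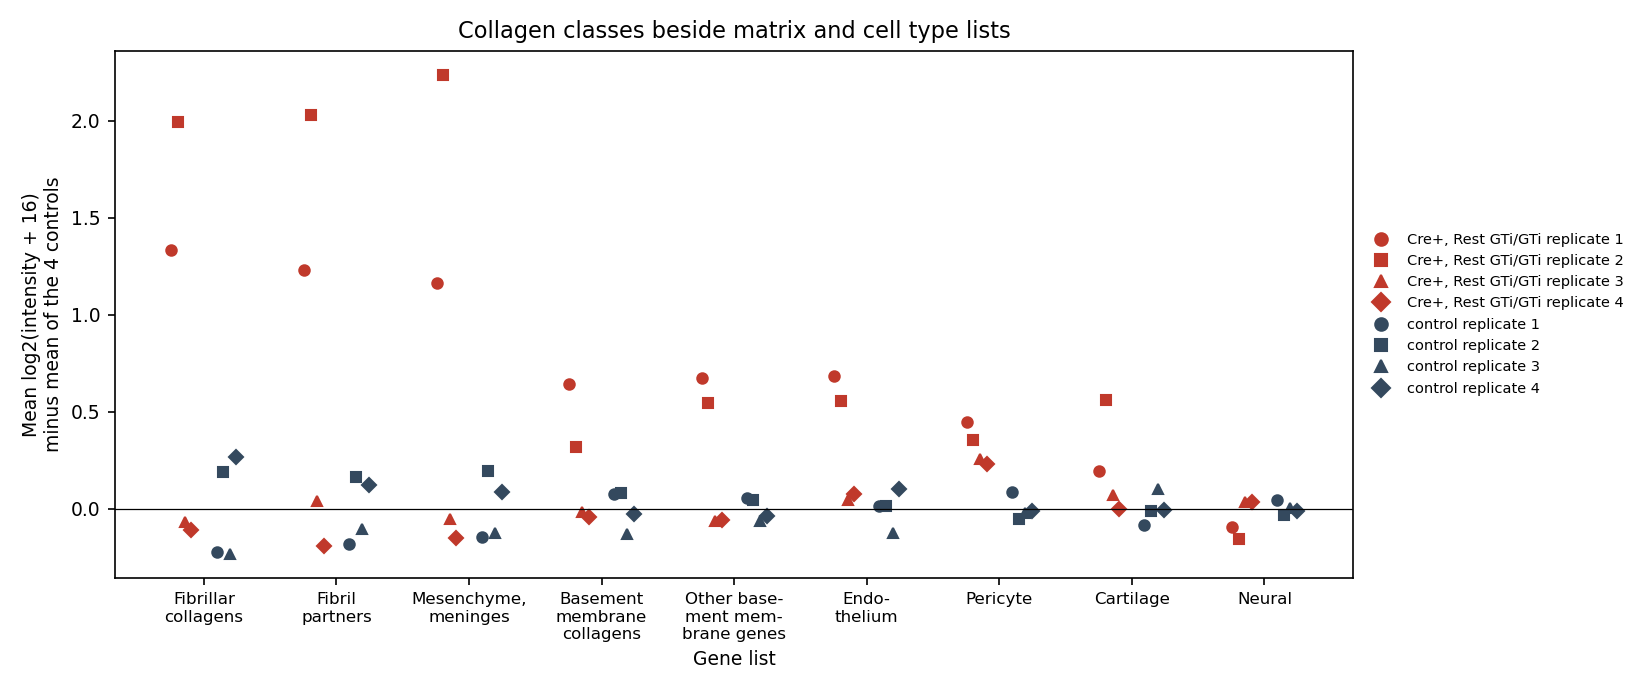
Mean of log2(intensity + 16) over each gene list minus the mean of the 4 controls, one mark an array; red is Cre+, Rest GTi/GTi, blue is control and the shape gives the replicate number. Fibrillar collagens, fibril partners and mesenchyme markers share the order replicate 2 (1.99, 2.03 and 2.24) over replicate 1 (1.33, 1.23 and 1.17), while basement membrane collagens, other basement membrane genes and endothelial markers have replicate 1 on top (0.64, 0.67 and 0.68).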

How the data were processed

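Gene expression in E12.5 brain was measured on Affymetrix Mouse 430_2 arrays, 4 for each genotype. According to the methods, the authors normalized by RMA in AffyPLM, took log2 and used a t-test adjusted after Benjamini and Hochberg. RMA is also named in the labels, where no version is given. The deposited values were linear intensity values from 0 up to 16078.2, with array medians of 40.9 to 68, and the step that made them is not given in the sources used here. A test on log2 values without scaling does not suit such values. They were therefore quantile normalized, 16 was added and log2 taken, and 45037 probe sets (45101 less 64 Affymetrix controls) were tested in R 4.3.3 with limma 3.58.1 (eBayes after lmFit), with Benjamini-Hochberg adjusted p-values over all of them called at 0.05. In the platform annotation 34945 probe sets had 1 gene, 932 had several and 9160 had none, and all 42 collagen symbols are in RefSeq. Of the probe sets, 30.6% had a mean below 16 and carry understated changes, and 8 of the 42 collagens were this dim. The number of arrays limits the precision. Single genes were also tested with a two-sided exact permutation over the 70 splits of the arrays. Values on every array were given for fibrillar and basement membrane collagens and the 10 other collagens with the widest range over the arrays. Of each further list, the leading 1 to 4 genes by range are given. Genes named beside a count, *Matn1*, *Matn3*, *Acan* and *Ucma* were chosen after their values were seen. Members and lists were chosen with earlier results of these data known. The tests were tried on simulated data. Replicate numbers were not used to pair the arrays in the main test. Promoters came from RefSeq on GRCm38.p6. No protein sequences were used.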

Additional observations from a re-analysis of the deposited data

Results flagged for a closer look

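Of 66 groups of 4 arrays examined (29 collagen genes and 4 class means in each genotype), 6 held an array far from the other 3, where its gap to the nearest of them was a larger share of the whole range than Dixon's 95% critical value allows. Chance alone marks about 1 group in 20. *Cre+, Rest GTi/GTi* replicate 2 was the high array for *Col24a1* (gap 0.948 of the range, intensity 16.4), *Col12a1* (0.91, intensity 328) and *Col14a1* (0.833, intensity 124). *Cre+, Rest GTi/GTi* replicate 3 was the high array for *Col11a2* (0.873, intensity 86.1). Among the controls, replicate 2 was low for *Col24a1* (0.84, intensity 0.49) and replicate 3 was low for *Col4a5* (0.892, intensity 235). Genes with similar high values on replicates 1 and 2 cannot be marked on those arrays by this measure, which looks for a single array. *Col12a1* also had its next highest value on replicate 1 (53.5), far below that on replicate 2.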

How the results depend on the processing

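Under all 23 alternatives to the scaling, the added constant, the probe set, the test and the arrays, 0 collagen genes were called. The median log2 fold change of the 42 genes lay between 0.17 and 0.54 when single arrays were left out, that of fibrillar collagens between 0.28 and 0.70, of basement membrane collagens between 0.06 and 0.31, and of other collagens between 0.11 and 0.54. With only probe sets of mean intensity 50 or more (27 collagens) the medians were 0.62, 0.62, 0.35 and 0.84. That filter uses the mean over all arrays, and genes such as *Col1a1* and *Col9a1* pass it only through their high *Cre+, Rest GTi/GTi* arrays, so these medians are no support for a higher level. With the replicate number as a block they were 0.41, 0.53, 0.20 and 0.38 with 0 called, and 4 collagens were higher and 1 lower at an unadjusted p under 0.05, beside 3.67% and 2.61% of all genes. After each group's mean was taken from every gene, the correlations of same-numbered arrays were -0.204, -0.0235, 0.0409 and -0.14. With 4 arrays a group, these values cannot decide whether same-numbered arrays were paired. Outside the block fit, the numbers were used only to name arrays. Over all genes, 41 were called as reported, against 0 with unequal variances, 0 with the replicate block, 0 without *Cre+, Rest GTi/GTi* replicates 1 and 2, 2 without scaling, 14 with equal variances and 14 with *Eif2s3y* as a covariate.

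Of 658 values of named genes under the alternatives, 621 kept their sign and 37 changed it, none of them called. Without *Cre+, Rest GTi/GTi* replicates 1 and 2 the log2 fold changes became -0.47 for *Col1a1*, -0.34 for *Col1a2*, -0.44 for *Col2a1*, -0.40 for *Col3a1*, -0.014 for *Col5a1*, -0.16 for *Col5a2*, 0.084 for *Col4a4*, -0.23 for *Col4a5*, -0.071 for *Col4a6*, -0.071 for *Col18a1*, -0.24 for *Col9a1*, -0.39 for *Col6a3*, -0.17 for *Col16a1*, -0.24 for *Col23a1* and -0.14 for *Col14a1*. Leaving out single arrays gave -0.27 to 0.31 for *Col2a1*, -0.024 to 0.14 for *Col5a3*, -0.13 to 0.080 for *Col4a4*, -0.13 to 0.10 for *Col4a5*, -0.050 to 0.13 for *Col4a6* and -0.074 to 0.61 for *Col14a1*. *Col4a4* was 0.016 with cyclic loess, 0.041 without scaling, 0.0052 with a constant of 1 and 0.0068 over all its probe sets. *Col4a5* was -0.034 with a common median, -0.012 with array weights and -0.070 with *Eif2s3y* as a covariate, where *Col5a3* was -0.051. *Col26a1* was -0.0037 without the less specific probe sets, where its only other one is dim. The causes of these changes were not tested.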
